A study of Mus musculus with 5 samples.

Results

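Schwann cell and glial genes were examined in RNA sequencing of forelimb muscle tissue from C57BL/6 mouse embryos at E15.5. The genes were Sox10, Erbb3, Mbp, Fabp7 and S100b, chosen by symbol, and all 5 were among the 4743 genes of the deposited tables. The Noggin-deficient group had 3 samples and the group labelled as wild type control had 2, all of the same strain, stage and tissue. Noggin, an extracellular antagonist of bone morphogenetic protein (BMP) signalling, sequesters these ligands before they reach a receptor. The labels name neither the Noggin allele nor whether a sample was 1 embryo or a pool, so each p-value reflects the spread between these 5 samples alone, which may be technical. Nog, which encodes Noggin, stood at 0.49, 0.42 and 0.42 in the Noggin-deficient and at 2 and 1.99 in the wild type libraries, or 22.2% of the wild type mean, the direction that the labels give for all 5 libraries.

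Schwann cells are the glia of peripheral nerves. They arise from the neural crest by way of Schwann cell precursors, which travel along growing axons and depend on axonal neuregulin, and then become immature Schwann cells, some of which later myelinate an axon. Sox10 encodes the transcription factor that specifies the lineage and is kept in its glia throughout. Erbb3 encodes the neuregulin receptor of the lineage, which signals together with its partner ERBB2. Fabp7 encodes the brain-type fatty acid binding protein and marks precursors, S100b encodes a calcium-binding protein that appears as precursors become immature Schwann cells, and Mbp encodes myelin basic protein of the compact myelin sheath. None of the 5 is found only in glia: Sox10 and Erbb3 are also expressed in melanocyte precursors, Erbb3 in epithelia, S100b in chondrocytes and fat cells, and Mbp has a longer transcription unit that is used in blood cells.

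In the values as deposited, the genes did not change in 1 direction, and the direction did not follow their order in the lineage. Fabp7, which marks precursors, and S100b, which appears as precursors become immature Schwann cells, were higher in the Noggin-deficient samples. Sox10 and Erbb3, which mark the whole lineage, and Mbp, the myelin gene, were lower. The result for Sox10 and Mbp depended on the scaling: with median-of-ratios factors, described below, their log2 changes were 0.01 and -0.15. As deposited, the changes were between 0.25 and 0.60 in size on the log2 scale. All 5 were called by limma's moderated test at an adjusted p under 0.05, 2 higher and 3 lower, but so were 98.0% of the 3913 genes tested, with 37.9% called higher and 60.1% called lower. The tables thus hold genes that nearly all differed between these same samples (how they were selected is not given), and a call alone says nothing particular about a glial gene.

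The 2 genes that were higher are shown first with the DNA in front of them, since they moved together. The 250 bases before the start of each gene come from RefSeq's annotation of GRCm38.p6, whereas the submitters' processing notes name mm9. Both windows are on the plus strand, Fabp7 at chr10:57784673-57784922 and S100b at chr10:76253586-76253835. Windows are shown for 2 of the 5 genes. None is given for Sox10, Erbb3 or Mbp, so the genes that were lower offer no comparison. Capitals mark CCAAT, a general promoter element, in either orientation.
Fabp7: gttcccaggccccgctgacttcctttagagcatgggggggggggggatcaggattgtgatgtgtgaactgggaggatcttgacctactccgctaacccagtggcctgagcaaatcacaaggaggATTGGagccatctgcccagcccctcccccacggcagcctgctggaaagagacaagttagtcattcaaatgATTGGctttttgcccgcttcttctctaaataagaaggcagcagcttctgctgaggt
S100b: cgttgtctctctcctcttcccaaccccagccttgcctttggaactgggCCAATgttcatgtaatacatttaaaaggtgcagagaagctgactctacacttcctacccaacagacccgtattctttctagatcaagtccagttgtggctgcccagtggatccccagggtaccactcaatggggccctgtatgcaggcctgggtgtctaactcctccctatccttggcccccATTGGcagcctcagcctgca
Each window held 2 CCAAT matches, and 33.8% of 32851 promoter windows of the same length held at least 1. Neither window held the Sox core ACAAAG or ACAATG on either strand, of which 25.2% of the windows held 1 or both, nor the palindrome GGCGCC, a GC-rich element to which BMP-regulated SMADs can bind, which 9.59% held. No 2 matches overlapped. The absence of these letters describes these windows only.

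Fabp7 stood at 3.8, 2.84 and 3.47 in the 3 Noggin-deficient libraries and at 2.14 and 2.12 in the 2 wild type libraries, in the deposited normalized unit, which is not named. The lowest Noggin-deficient library lay above both wild type libraries, and the Noggin-deficient libraries were far more spread, with a coefficient of variation of 14.5% against 0.664%. The mean went from 2.13 ± 0.0141 (SD, n = 2) to 3.37 ± 0.488 (SD, n = 3), or 158% of the wild type mean. On log2(value + 0.25) the change was 0.60 (SE 0.11, 95% interval 0.34 to 0.85, limma adjusted p = 0.0012). It was 0.51 to 0.71 when 1 library was left out at a time, the highest value being without Noggin-deficient replicate 2, whose Fabp7 value was the lowest of its group.

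S100b stood at 6.29, 5.99 and 6.5 in the Noggin-deficient libraries and at 4.3 and 5.03 in the wild type libraries. The groups did not overlap, and here the wild type libraries were the more spread. The mean went from 4.67 ± 0.516 (SD, n = 2) to 6.26 ± 0.256 (SD, n = 3), or 134% of the wild type mean. The log2 change was 0.41 (SE 0.0708, 95% interval 0.24 to 0.57, limma adjusted p = 0.00087). It was 0.30 without wild type replicate 1 and 0.52 without wild type replicate 2, and it was called in both cases.

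Sox10 stood at 5.59, 5.84 and 5.52 in the Noggin-deficient libraries and at 6.83 and 6.73 in the wild type libraries. All Noggin-deficient libraries lay below the wild type libraries, and the spread within each group was small. The mean went from 6.78 ± 0.0707 (SD, n = 2) to 5.65 ± 0.168 (SD, n = 3), or 83.3% of the wild type mean. The log2 change was -0.25 (SE 0.044, 95% interval -0.36 to -0.15, limma adjusted p = 0.00088). Only 6.01% of the tested genes had a smaller change, and the median size over all tested genes was 0.44.

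Erbb3 stood at 13.94, 13.4 and 13.78 in the Noggin-deficient libraries and at 20.04 and 20.03 in the wild type libraries. This was the widest separation of the 5 genes in units of its own spread. The mean of the Noggin-deficient libraries, 13.7 ± 0.277 (SD, n = 3), was 68.4% of the wild type mean, whereas the 2 wild type libraries were nearly equal. The log2 change was -0.54 (SE 0.0317, 95% interval -0.61 to -0.47, limma adjusted p = 3.9e-06).

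Mbp stood at 1.96, 1.72 and 1.77 in the Noggin-deficient libraries and at 2.41 and 2.5 in the wild type libraries. The groups again did not overlap. The mean went from 2.46 ± 0.0636 (SD, n = 2) to 1.82 ± 0.127 (SD, n = 3), or 74% of the wild type mean. The log2 change was -0.39 (SE 0.0757, 95% interval -0.57 to -0.21, limma adjusted p = 0.0016). Mbp has 14 transcripts in GENCODE's basic set, and a single value per gene does not tell the myelin transcripts from those of the longer unit. In bulk tissue, fewer cells of a type and less RNA per cell cannot be told apart, here as for the other genes. For none of the 5 genes did the groups overlap, as for 98.2% of all listed genes, and the smallest p that an exact permutation of 3 against 2 samples allows is 0.1, one-sided.

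**Figure D1:**
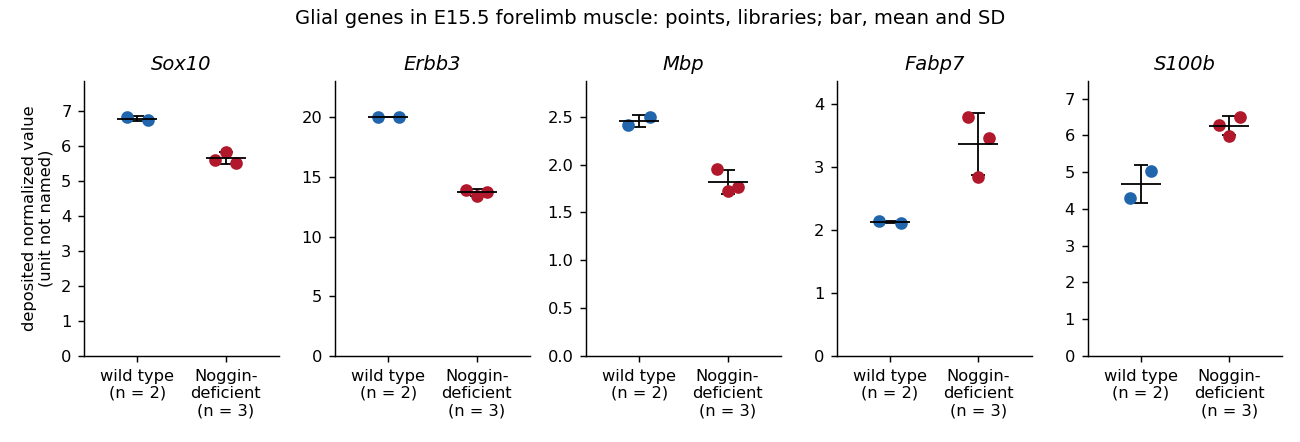
Deposited normalized value (y axis, unit not named, from 0) of each glial gene in the 2 wild type (blue) and 3 Noggin-deficient (red) libraries; black bars give the mean and SD. Sox10, Erbb3 and Mbp are lower and Fabp7 and S100b higher in the Noggin-deficient libraries, with Fabp7 spread from 2.84 to 3.8.

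The direction of the calls in these tables followed transcript length, and the glial genes differ in length. Fabp7, with a median transcript length of 842 bases, lies in the shortest eighth of the tested genes, of which 69% were called higher. S100b, with 1484 bases, lies in the second eighth, of which 60.6% were called higher. Mbp, with 1934.5 bases, lies in the third eighth and was lower although 56.3% of that eighth were called higher. Sox10, with 2746.5 bases, lies in the fourth eighth, of which 57% were called lower, and Erbb3, with 6016 bases, in the seventh, of which 83.3% were called lower.

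**Figure D2:**
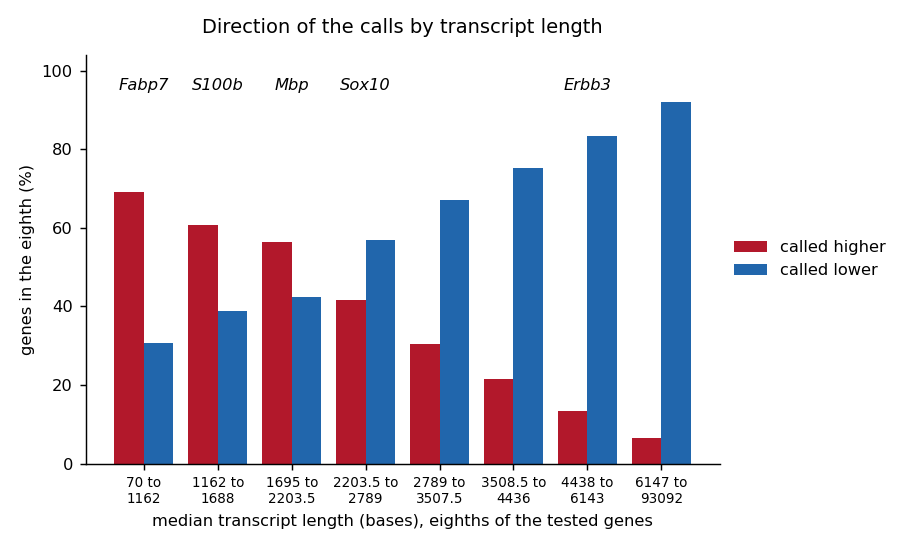
Share of genes called higher (red) and lower (blue) in the Noggin-deficient samples (y axis, percent) in eighths of the tested genes by median transcript length (x axis, bases), with the eighth of each glial gene marked. The share called higher falls from 69% in the shortest eighth to 6.42% in the longest, and Mbp is the one glial gene whose direction differs from that of most genes of its eighth.

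After the trend on transcript length was removed in each library, which also brings the median change of all genes to about 0, Erbb3 remained lower and Fabp7 and S100b remained higher, at smaller sizes. Erbb3 was then at -0.18 (limma adjusted p = 0.00086), Fabp7 at 0.28 (limma adjusted p = 0.046) and S100b at 0.27 (limma adjusted p = 0.0077). Sox10 was at -0.08 and no longer called (limma adjusted p = 0.16). Mbp was at -0.46 (limma adjusted p = 0.0008). With the longest transcript of each gene in place of the median, a choice made after the values had been seen, Mbp counts as 4797 bases long and its change was -0.09 (limma adjusted p = 0.33), Fabp7 was at 0.21 (limma adjusted p = 0.12) and Sox10 at -0.16 (limma adjusted p = 0.012). The calls of Mbp, Sox10 and Fabp7 therefore depended on how length was treated.

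The calls of Mbp and Sox10 also depended on the scaling between libraries. Median-of-ratios factors, computed from the listed genes, moved the median change of all tested genes by 0.25 and upper-quartile factors moved it by 0.19. Under median-of-ratios scaling Sox10 turned to 0.01 (limma adjusted p = 0.88) and Mbp was at -0.15 (limma adjusted p = 0.12). Erbb3 was at -0.27, Fabp7 at 0.84 and S100b at 0.67, each still called. None of the 5 genes passed limma's test against a 1.5-fold change (adjusted p = 1 for each).

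**Figure D3:**
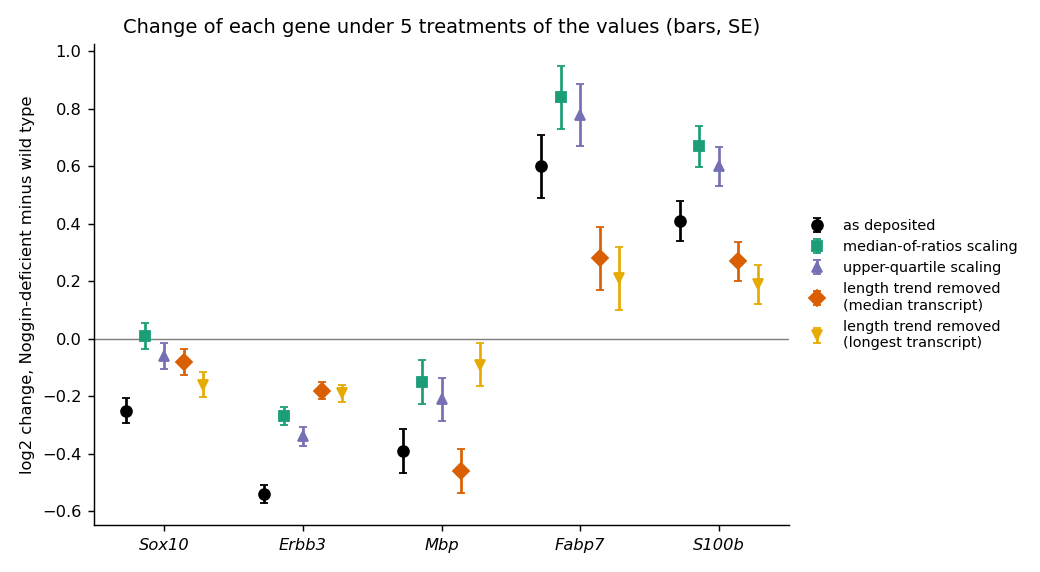
Log2 change, Noggin-deficient minus wild type (y axis), of each glial gene under 5 treatments of the values (symbols), with SE as bars. Fabp7 and S100b stay above 0 and Erbb3 below 0 under all 5, while Sox10 lies between -0.25 and 0.01 and Mbp between -0.46 and -0.09.

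Ratios of 1 gene to another within a library do not depend on the scaling between libraries, although they still carry the length difference. The log2 ratio of Fabp7 to Sox10 was -0.56, -1.04 and -0.67 in the Noggin-deficient libraries and -1.67 in both wild type libraries, a mean difference of 0.91. That of S100b to Sox10 was 0.17, 0.04 and 0.24 against -0.67 and -0.42, a mean difference of 0.69. Fabp7 and S100b were thus both higher against Sox10 in each Noggin-deficient library. The log2 ratio of Erbb3 to Sox10 was 1.28 ± 0.0698 (SD, n = 3) against 1.56 ± 0.0145 (SD, n = 2), a mean difference of -0.28. The log2 ratio of Mbp to Sox10 was -1.51, -1.76 and -1.64 against -1.50 and -1.43, which barely kept the groups apart. Fabp7 and S100b were the 1 pair of the 10 whose ratio overlapped between the groups, from -1.08 to -0.73 in the Noggin-deficient and from -1.25 to -1.01 in the wild type libraries. The other 9 ratios did not overlap. How often ratios of other gene pairs overlap was not counted.

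The lists of glial genes by stage, of which the 5 genes are part, held mostly lower values. Of the 15 other tested genes on the neural crest, precursor, immature and myelinating lists, 14 were called lower and 1, Twist1, higher, with a median log2 change of -0.48 beside -0.28 over all tested genes. The listed genes were 19 of 61, so most of each list was not analysed here, and 4 of the 19 were too low to be tested. Over all tested genes 60.1% were called lower before any such change of the values. Under median-of-ratios scaling 9 of the 15 were called lower, 1 higher and 5 were not called (median -0.23). Of all 3913 tested genes, 1272 were called lower under that scaling (median -0.03). After removal of the length trend 11 of the 15 were called lower, 1 higher and 3 were not called (median -0.43). Of the 3737 genes tested there, 1318 were called lower (median -0.00).

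Among the neural crest genes, 4 were tested. Zeb2, a zinc finger repressor that neural crest cells need, stood at 8.3, 8.1 and 8 in the Noggin-deficient and 10.88 and 10.7 in the wild type libraries, a log2 change of -0.40 that came to -0.10 after removal of the length trend and to -0.13 under median-of-ratios scaling. Ret, the receptor for glial cell line-derived neurotrophic factor, had a log2 change of -0.65, which was -0.33 after removal of the length trend and -0.47 under median-of-ratios scaling. Twist1, a mesenchymal transcription factor also found throughout limb mesenchyme, averaged 44.3 ± 0.573 (SD, n = 2) in wild type and 61.1 ± 0.919 (SD, n = 3) in Noggin-deficient libraries, 0.46 higher on the log2 scale.

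On the Schwann cell precursor list, Fabp7 was the 1 of 8 tested genes that was higher, and the other 7 were lower, beside 60.1% of all tested genes. Under median-of-ratios scaling 3 of the 8 were called lower and 4 were not called, beside 1272 lower of all 3913 tested genes. After removal of the length trend 5 were called lower and 2 were not called, beside 1318 lower of the 3737 genes tested there. Cdh19, a cadherin of precursors, stood at 0.47, 0.32 and 0.48 against 0.74 and 0.6, or -0.46 on the log2 scale (SE 0.145, limma adjusted p = 0.016), which was -0.27 and not called under median-of-ratios scaling. Cadm4, an adhesion molecule by which Schwann cells hold axons, was at -0.23, or -0.24 after removal of the length trend and 0.03 under median-of-ratios scaling. Gas7, a cytoskeletal adaptor, was at -0.50, or -0.23 under median-of-ratios scaling and still called. Sox2, a transcription factor of immature glia, was at -0.58, with wild type values of 0.67 and 1.1 that were far apart, and was not called under median-of-ratios scaling (-0.38, limma adjusted p = 0.11).

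On the immature Schwann cell list, S100b was the 1 of 4 tested genes that was higher, and 3 were lower. Over all tested genes 37.9% were called higher and 60.1% lower. Under median-of-ratios scaling 3 of the 4 were called lower, beside 1272 of all 3913 tested genes. After removal of the length trend 2 were called lower and 1 was not called, beside 1318 lower of 3737 genes. Pou3f1, a POU factor that starts the myelin programme in Schwann cells and is also made in epidermis, stood at 1.26, 1.16 and 1.21 in the Noggin-deficient and 3.01 and 2.86 in the wild type libraries. It fell by 1.13 on the log2 scale and also passed against a 1.5-fold change (limma adjusted p = 0.00074). Notch1, a receptor active in many cells of the limb, was at -0.35, or 0.06 and not called after removal of the length trend. Fos, an immediate early gene, was at -0.48, or -0.21 under median-of-ratios scaling and still called.

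On the myelinating list all 6 tested genes were called lower, beside 60.1% of all tested genes, with a median log2 change of -0.48. After removal of the length trend 5 were called lower and 1 was not called (median -0.58), beside 1318 lower of 3737 genes (median -0.00). Under median-of-ratios scaling 3 were called lower and 3 were not called (median -0.22), beside 1272 lower of all 3913 tested genes (median -0.03). Mal, a membrane raft protein of myelin and of epithelia, stood at 6.77, 6.83 and 6.17 in the Noggin-deficient and 24.81 and 26.47 in the wild type libraries. It fell by 1.92 on the log2 scale. Pllp, of plasmolipin, which is likewise found in myelin and in epithelia, stood at 1.14, 1.26 and 1.24 against 2.59 and 3.25 and fell by 1.11. Pmp22, a small myelin membrane protein that fibroblasts also make, stood at 59.13, 59.44 and 59.07 against 70.81 and 71.24, groups well apart at a smaller fold than Mal and Pllp. Its log2 change was -0.26, was -0.43 after removal of the length trend and turned to 0.01 under median-of-ratios scaling. Nab1, a cofactor of the myelin regulator EGR2, was at -0.25, and at 0.03 and 0.01 under the same settings in that order.

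**Figure D4:**
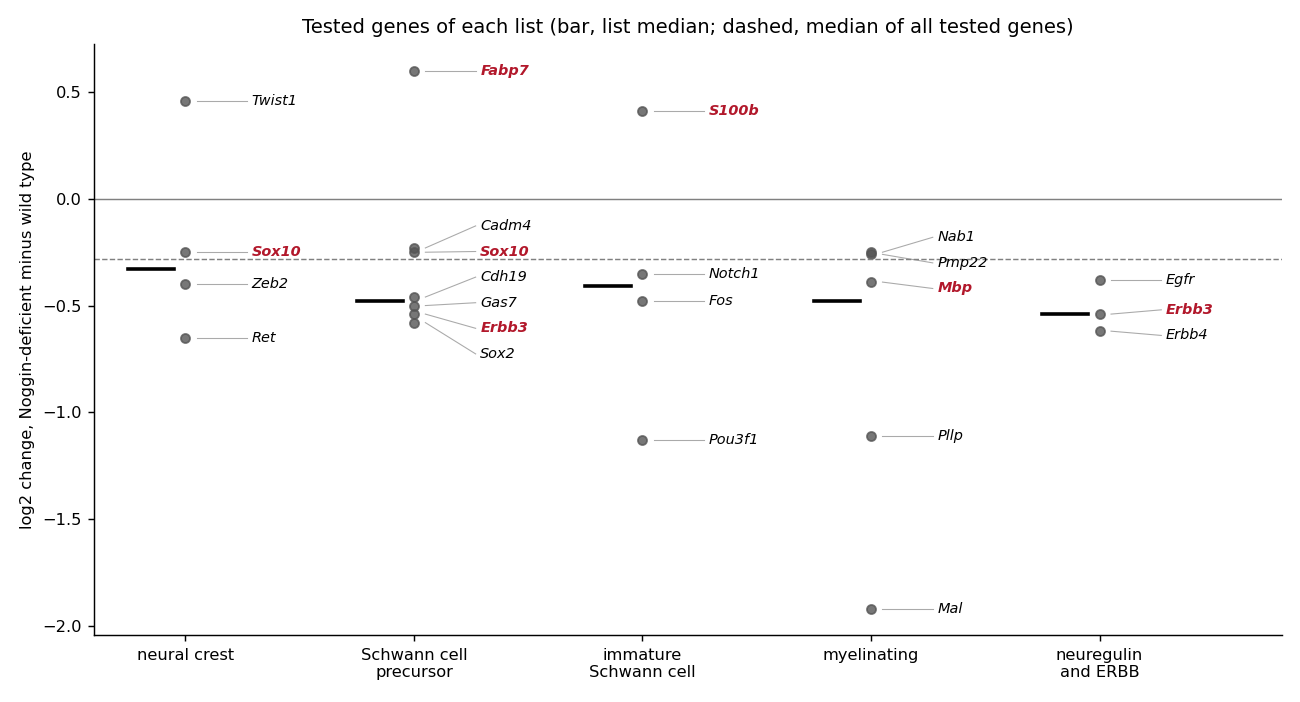
Log2 change, Noggin-deficient minus wild type (y axis), of the tested genes, 1 not shown, on the lists of the glial lineage and of neuregulin and ERBB signalling (x axis); thick bars give the medians of all tested genes of a list, the dashed line the median of all tested genes (-0.28), and the 5 glial genes chosen by symbol are in red. Fabp7, S100b and Twist1 lie above 0 and the rest of the genes under it, although Sox10, Cadm4, Pmp22 and Nab1 turn to between 0.01 and 0.03 under median-of-ratios scaling and Notch1 and Nab1 turn to 0.06 and 0.03 after removal of the length trend.

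Measured against Sox10 within each library, 22 listed genes of these lists, Erbb3, Mbp, Fabp7 and S100b among them and Gjb1 left out because it is listed at 0 in 1 library, fell into 4 that were higher in every Noggin-deficient library, 13 that were lower and 5 that overlapped. The same count was not made for ratios of other genes to Sox10. By their own values, 98.2% of all listed genes kept the groups apart. The ratios of Pmp22, Cadm4 and Nab1 to Sox10 had mean log2 differences of 0.00, 0.02 and 0.01 and overlapping groups. Pou3f1 had a mean difference of -1.02 and Mal of -1.70. The genes higher against Sox10 were Fabp7, S100b, Twist1 and Nfasc, of an adhesion protein of the axon and its glia whose values were between 0.1 and 0.2 in all libraries.

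**Figure D5:**
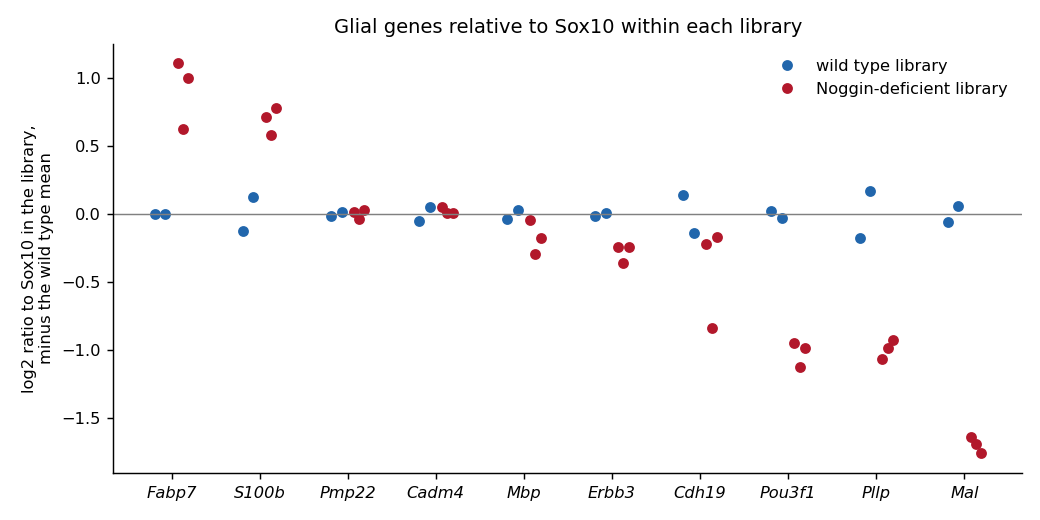
Log2 ratio of a gene to Sox10 within each library, minus the mean of the 2 wild type libraries (y axis), for glial genes (x axis); points are wild type (blue) and Noggin-deficient (red) libraries. Fabp7 and S100b lie above the wild type libraries by means of 0.91 and 0.69, Pmp22 and Cadm4 lie among them, and Pou3f1 and Mal lie below them by means of -1.02 and -1.70.

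Of the neuregulin and ERBB genes, 4 of 27 were listed and 3 tested, and all 3 were lower, beside 60.1% of all tested genes and 83.3% to 91.9% in the length eighths that hold them. Beside Erbb3, these were Egfr, the epidermal growth factor receptor, at -0.38, and Erbb4, a neuregulin receptor of nerve and muscle, at -0.62 with values of at most 0.69. Both estimates depended on length: Egfr was at -0.02 (limma adjusted p = 0.72) and Erbb4 at -0.20 (limma adjusted p = 0.16) once the length trend was removed, where Erbb3, still called, was at -0.18. The neuregulin gene Nrg1 and the co-receptor gene Erbb2 were not analysed here. Erbb3 is also listed with genes of the neuromuscular junction, where neuregulin receptors lie in the muscle fibre. All 7 tested genes of that list, Erbb3 included, were called lower (median log2 change -0.54), beside 60.1% of all tested genes. Of 18 tested muscle fibre genes 16 were lower as well (median -0.52). Under median-of-ratios scaling 5 of the 7 junction genes were called lower (median -0.27), beside 1272 of all 3913 tested genes. After removal of the length trend 4 of the 7 were called lower (median -0.18), beside 1318 of 3737 genes.

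The families of Fabp7 and S100b hold mostly short genes, and 69% of the shortest eighth of all tested genes were called higher. Of the 7 other tested fatty acid and retinoid binding protein genes, 6 were called higher and 1 lower, beside 37.9% higher over all tested genes, and these counts were equal after removal of the length trend. Among them were Fabp4, of fat cells, at 1.13, Crabp1, a retinoic acid binding protein of mesenchyme, at 0.49 (0.16 after removal of the length trend), and Fabp1, of liver, listed at 0 in both wild type libraries and at 0.76, 1.4 and 1.31 in the Noggin-deficient ones. Rbp2, the intestinal retinol binding protein, was the 1 that was lower, at -0.90. Of the 6 other tested S100 genes, 4 were called higher and 2 lower. After removal of the length trend 1281 of 3737 genes were called higher and 1318 lower. Of the 6 S100 genes 2 were then called higher, 2 lower and 2 were not called. The latter were S100a1, of muscle, which went from 0.63 to 0.22 (limma adjusted p = 0.092), and S100a8, of neutrophils, which went from 0.76 to 0.26 (limma adjusted p = 0.17). S100a9, also of neutrophils, was at 0.79, or 0.32 and still called, and S100a14 and S100a7a, of epidermis, were at -0.69 and -0.99. In the Sox family the other tested genes were Sox2, Sox6, a factor of cartilage and muscle, at -0.64 (-0.27 after removal of the length trend), and Sox12 at 0.40.

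Genes of other cell types in the tissue moved between the groups as well. The markers of the labelled tissue were present: 18 of 20 muscle fibre genes were listed, and skeletal actin, Acta1, stood between 1580 and 1629 in the Noggin-deficient and between 2335 and 2357 in the wild type libraries. Of these 18 muscle genes 16 were called lower and 2 higher (median -0.52, or -0.25 under median-of-ratios scaling), beside 60.1% lower and a median of -0.28 over all tested genes. Axonal and other neuronal genes were higher: all 16 tested were called higher, at a median of 1.45 on the log2 scale (0.78 with a pseudocount of 1), and the summed value of the 19 listed went from 29.3 to 29.7 in wild type to 65.5 to 68.1 in Noggin-deficient libraries. Of 11 tested sympathetic neuron and chromaffin genes 9 were higher (median 1.83), and Ddc and Gata3 were lower, at -0.52 and -0.60. Most genes of the neuronal lists thus moved opposite to Sox10, Erbb3 and Mbp and the same way as Fabp7 and S100b. All 16 tested epidermal genes were lower (median -1.32), their summed value going from 3306 to 3314 in wild type to 1391 to 1449 in Noggin-deficient libraries, the same direction as Erbb3, Pou3f1, Mal and Pllp, which epithelia also express. Of 9 tested fat cell genes 7 were higher (median 1.13, summed values of 191 to 198 against 351 to 360), and of 10 cartilage genes 3 were higher and 7 lower (median -0.34, summed values of 188 to 190 against 167 to 168). After removal of the length trend 3 cartilage genes were called higher, 2 lower and 5 were not called (median -0.02). Of all 3737 genes tested there, 1281 were called higher and 1318 lower. With median-of-ratios scaling the median of the cartilage genes was -0.08. Both tissues also express S100b. Of 16 melanocyte genes 3 were listed and the 2 tested, Kit and Rab38, were lower. Kit went from -0.34 to -0.07 under median-of-ratios scaling (limma adjusted p = 0.15) and to -0.00 with the length trend removed (limma adjusted p = 1), while Rab38 was called under both. The pigment genes Dct, Tyr, Tyrp1 and Pmel were not analysed here. All 12 tested liver genes were higher (median 3.48), their summed value being 107 to 108 in Noggin-deficient and 1.49 to 1.72 in wild type libraries, and all 8 tested erythroid genes were higher (median 0.55, summed values of 97.5 to 102 against 224 to 231). Oligodendrocyte and astrocyte genes were hardly represented, with 2 of 14 listed, 1 higher and 1 lower. The part of any of these cell types in the glial values was not tested.

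The values of the listed genes summed to between 92210 and 93695 in the Noggin-deficient and between 100792 and 102783 in the wild type libraries. The depth in reads is unknown, so no counting interval is given. Libraries of 1 group correlated at 0.996 to 0.997 and libraries of different groups at 0.927 to 0.929, across the log2 values of the tested genes, which are not independent replicates.

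The profile of each glial gene over the 5 libraries was compared with those of 3160 named genes with a mean of at least 1, by the root mean square difference of centred log2 values. The genes nearest to Sox10 were Pde4d, a phosphodiesterase (0.00936), Rhov, a small GTPase (0.0126), and Fn1, of fibronectin (0.0128). Nearest to Erbb3 were Polr3g, Traf6 and Fam198b (0.00973 to 0.013), and nearest to Mbp were Abca9, Clcn3 and Scamp1 (0.0169 to 0.018). Nearest to S100b were Slc7a7, Tmem98 and Coasy (0.0169 to 0.0206). Fabp7 had no profile as close, the nearest being Gstm7, Ggt7 and the chemokine gene Ccl2 (0.064 to 0.0683). None of these 15 genes was on a glial list, but only 24 of all 4743 listed genes were, so their absence says little about the glial genes.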

How the data were processed

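Per the labels' protocols, total RNA was extracted on columns and stranded mRNA libraries (KAPA) were sequenced on an Illumina instrument. The tools named in the submitters' processing notes are DESeq2, with no version, and STAR 2.4.2a, and the build named there is mm9; none is given a role. The deposited values are a normalized expression signal, 1 non-negative decimal per gene and sample, made by the authors in a unit that is not named, and the sources used here state neither the counter and annotation nor how genes were selected. The genes and gene lists were chosen with earlier results of these data known.

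The test covered the 3913 of 4743 genes that reached 0.5 in 2 or more libraries. It was limma 3.58.1 in R 4.3.3 (moderated test with an intensity trend) on log2(value + 0.25), as the difference of Noggin-deficient from wild type, Benjamini-Hochberg adjusted over all tested genes and called under 0.05. Fold changes on this scale understate those of low genes. The fit was checked on simulated data in which few genes changed, in random directions. Nearly all genes were called here, so that check does not cover a set selected in this way. Lists were described by counts and medians, with no set test. Transcript lengths came from GENCODE's basic set (94.1% of listed genes matched), and the length trend was removed by lowess with a span of 0.3.

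The rule for named genes took the 5 glial genes and Nog, up to 8 genes by mean level from each glial, neuregulin, Sox, FABP and S100 list, up to 3 from each other list, and the 3 nearest profiles of each glial gene, 93 genes in all. Gjb1 was named outside the rule, after its values had been seen. The values of 1 gene of the glial lists are not reported here, although list counts and medians include it.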

Additional observations from a re-analysis of the deposited data

How the results depend on the processing

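Erbb3, Fabp7 and S100b kept their direction under all 15 alternatives run, and Mbp did so too. Sox10 turned to 0.01 under median-of-ratios scaling and was no longer called at -0.06 under upper-quartile scaling or at -0.08 after removal of the length trend. Mbp was no longer called at -0.15 under median-of-ratios scaling or at -0.09 with the longest transcript as length, and Fabp7 at 0.21 with the longest transcript. Why these calls were lost was not tested. Against a 1.5-fold change the estimates stay as reported (-0.25, -0.54, -0.39, 0.60 and 0.41 for Sox10, Erbb3, Mbp, Fabp7 and S100b) and none passed; over all genes 569 passed, 165 higher and 404 lower. Of 3836 calls in all, 2352 were lower, against 1272 under median-of-ratios scaling, 1318 after removal of the length trend and 1284 with the longest transcript, where 2517 were called in all. The share of calls that were higher was 38.7%, against 53.9%, 49.3% and 49% under these settings and 48% under upper-quartile scaling. Leaving out 1 library at a time gave -0.28 to -0.24 for Sox10, -0.55 to -0.52 for Erbb3, -0.44 to -0.36 for Mbp, 0.51 to 0.71 for Fabp7 and 0.30 to 0.52 for S100b, all called. Where 1 wild type library was left, it was assumed to vary like the Noggin-deficient libraries. The deviations of same-numbered libraries correlated at -0.13 and -0.06 over the 2 shared numbers. With 2 wild type libraries, their deviations mirror each other. These values therefore cannot show whether same-numbered samples share more than a number. With the replicate number as a block the changes were -0.24, -0.54, -0.37, 0.57 and 0.38 for Sox10, Erbb3, Mbp, Fabp7 and S100b, all called, with 3772 genes called in all. Pseudocounts of 0.1 and 1 and other filters on low values changed none of the 5 calls, but some list medians moved by over 1.5 times: neuronal genes from 1.45 to 0.78, precursor genes from -0.48 to -0.28 and neuregulin and ERBB genes from -0.54 to -0.35 with a pseudocount of 1, and myelinating genes from -0.48 to -0.26 with no filter. The depth of the libraries is unknown, and scaling factors over selected genes may not be those of the whole libraries.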

Other observations

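A few further genes of the glial lineage were listed with values too low to be tested. Gjb1, a gap junction gene of myelinating Schwann cells and of liver, stood at 0.22, 0.17 and 0.16 in the Noggin-deficient libraries, and of 0.07 in 1 wild type library while it was listed at 0 in the other. Cldn19, a tight junction gene of myelinating Schwann cells, stood at 0.13, 0.16 and 0.17 against 0.28 and 0.19. Sox5, a Sox factor that opposes SOX10 at some of its targets, stood at 0.16, 0.15 and 0.18 against 0.25 and 0.27. Nrg4, a neuregulin, stood at 0.3, 0.36 and 0.25 against 0.37 and 0.47. The groups did not overlap for these 4 genes, as for 98.2% of the listed genes, and the reads behind such values are unknown.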
